A study of Caenorhabditis elegans with 6 samples.

Results

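Transcripts of 6 Caenorhabditis elegans genes were followed in larvae mutant for blmp-1: the glycerol-3-phosphate dehydrogenase genes gpdh-1 and gpdh-2, the inositol transporter gene hmit-1.1, the osmotic regulator gene osm-8, and the metallothionein genes mtl-1 and mtl-2. They and the gene lists below were chosen by name, with earlier results of these data known. All 6 of 6 were found by sequence name among 45343 features. The 6 genes passed the filter of a mean of at least 1 FPKM, as 17058 features did. FPKM counts fragments of a transcript scaled to its length and to the size of the library. Messenger RNA came from whole animals at mid-L3, the third larval stage, in 3 libraries of the mutant strain blmp-1(tm548) and 3 of the wild-type strain N2 Bristol (WT). Both strains were synchronized by bleaching, and no salt or metal treatment is named in the labels. The labels call them biological replicates and do not say how cultures were kept apart, so p-values measure the spread between these samples. tm548 is an allele of blmp-1, which encodes a zinc-finger transcription factor homologous to mammalian Blimp-1, and the comparison asks which transcripts change with it.

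Worms placed in salty surroundings make glycerol as a protective solute. The cytosolic enzymes GPDH-1 and GPDH-2 catalyse its rate-limiting step, and gpdh-1 is the strongly inducible gene, in the epidermis and intestine. The same genes come on without salt when the collagen furrows of the cuticle, or secreted epidermal proteins such as OSM-8, are lost, which is why they are read as reporters of cuticle damage. Metallothioneins are small cysteine-rich proteins that bind zinc and cadmium. In the worm mtl-2 is an intestinal gene, mtl-1 is also made in the pharynx, and mtl-1 is a target of the insulin pathway factor DAF-16 and of the zinc receptor HIZR-1.

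The blmp-1 transcript was at 40.3, 36.9 and 38.0 FPKM in blmp-1(tm548) replicates 1, 2 and 3, against 64.9, 71.1 and 75.2 FPKM in WT replicates 1, 2 and 3 (log2 difference -0.86, limma adjusted p = 0.00299). The groups did not overlap, which is a partial check of the genotype labels, since the labels do not say which exons tm548 affects. Depth, estimated from the spacing of low values within a set search range, was 7470000 to 8040000 reads a library. Markers of intestine, epidermis, body wall muscle, neurons and germline were all above 0 in each library, and 0 of them passed the test. The summed intestinal markers (7 genes) were at 784 to 823 FPKM in blmp-1(tm548) and 783 to 838 FPKM in WT, and the summed epidermal markers (4 genes) at 449 to 499.7 FPKM in blmp-1(tm548) and 455 to 507 FPKM in WT. In RNA of whole animals, fewer cells of a type and less RNA per cell cannot be told apart.

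Of the 6 genes only mtl-2 passed the test in the mutant, and it fell. gpdh-1, gpdh-2, hmit-1.1 and mtl-1 had higher means in the mutant and osm-8 a lower one, without passing. With libraries weighted by their estimated quality these 5 passed in the same directions (limma adjusted p = 0.00663 to 0.0462), and over all features tested 2005 were higher and 2112 lower, against 570 and 522 without weights. Of the 17058 features tested 6.40% were called (limma on log2 of FPKM + 1, Benjamini-Hochberg adjusted p under 0.05), with 3.34% higher and 3.06% lower in blmp-1(tm548). The count of 1 of 6 stands beside that share and is too small to read against it. The groups did not overlap for 4 of the 6 genes (gpdh-1, gpdh-2, mtl-1 and mtl-2), where 28.7% of the features tested had groups that did not overlap. The 6 log2 differences ran between -0.63 and 1.298, with a median of 0.28 beside 0.00 over all features tested.

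**Figure D1:**
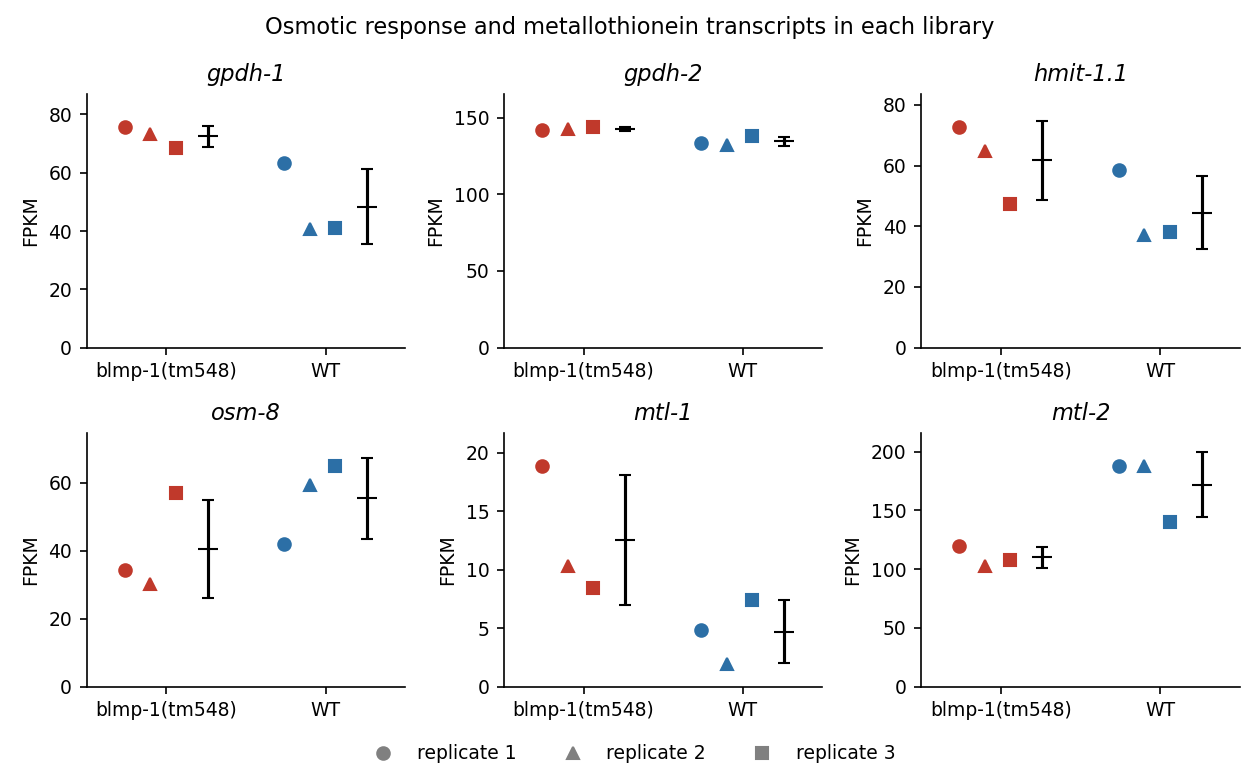
FPKM of the 6 genes in each library, with blmp-1(tm548) in red left of WT in blue; symbols mark the replicate number, and the black bar is the mean with the SD (n = 3). For mtl-2 the highest mutant library (119.5 FPKM) lies under the lowest WT library (140.3 FPKM), while for hmit-1.1 and osm-8 the groups overlap.

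Glycerol synthesis showed its inducible gene at a higher mean in the mutant. gpdh-1 (F47G4.3) was at 75.8, 73.2 and 68.6 FPKM in blmp-1(tm548) replicates 1, 2 and 3, against 63.2, 40.7 and 41.2 FPKM in WT replicates 1, 2 and 3. Each mutant library lay above each WT library, and WT replicate 1 stood apart from the other WT libraries, close to the mutant ones. The means were 72.5 ± 3.66 FPKM in blmp-1(tm548) and 48.3 ± 12.9 FPKM in WT (SD, n = 3 each). The log2 difference was 0.60 (SE 0.173, 95% interval 0.19 to 1.02), a 1.52-fold difference, and it missed the threshold (limma adjusted p = 0.102). Without WT replicate 1 the log2 difference was 0.81 and passed (limma adjusted p = 0.00555). With any other single library left out gpdh-1 did not pass (limma adjusted p = 0.155 to 0.284). In the WBcel235 annotation gpdh-1 shares 73 exon bases with gadr-6 on the opposite strand, whose mean was 11.2 FPKM in blmp-1(tm548) and 10.2 FPKM in WT. Whether the counting used strand is not given in the sources used here.

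gpdh-2 (K11H3.1), the more constant of the pair, was at 141.6, 142.6 and 144.1 FPKM in blmp-1(tm548), against 133.4, 132.2 and 138.0 FPKM in WT. The groups did not overlap, yet they lay within a narrow band. The log2 difference was 0.09 (SE 0.0348, limma adjusted p = 0.216), and the 95% interval of the log2 difference was 0.00 to 0.17. Within a library gpdh-1 stood at 0.536, 0.513 and 0.476 of the gpdh-2 level in blmp-1(tm548) replicates 1, 2 and 3. That ratio was 0.474, 0.308 and 0.298 in WT replicates 1, 2 and 3, so WT replicate 1 came near the lowest mutant library. Both are FPKM values, so the ratio is per length.

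hmit-1.1 (Y51A2D.4), a proton-coupled myo-inositol transporter induced by hypertonic stress, was at 72.8, 64.8 and 47.4 FPKM in blmp-1(tm548) replicates 1, 2 and 3, against 58.5, 37.0 and 38.1 FPKM in WT replicates 1, 2 and 3. The groups overlapped, with mutant replicate 3 below WT replicate 1. On the log2 scale the difference was 0.47 (SE 0.227, 95% interval -0.08 to 1.02, limma adjusted p = 0.278). The interval is wide and holds 0, so the data do not show that the level was the same.

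Next to hmit-1.1 on the same strand lies its paralog hmit-1.2 (Y51A2D.5), and hmit-1.2 rose. It was at 36.6, 38.2 and 32.7 FPKM in blmp-1(tm548), against 21.8, 16.1 and 12.2 FPKM in WT, and the groups lay well apart. With an SE of 0.199 the log2 difference was 1.09 (limma adjusted p = 0.0310). Its call was lost without blmp-1(tm548) replicate 1, 2 or 3 or WT replicate 2 (limma adjusted p = 0.116, 0.115, 0.0563 and 0.120), and with no trend in the prior variance (0.0541). The ratio of hmit-1.1 to hmit-1.2 within a library was 1.99, 1.7 and 1.45 in blmp-1(tm548) replicates 1, 2 and 3 and 2.69, 2.3 and 3.11 in WT replicates 1, 2 and 3, with no overlap. The difference between the changes of both genes was not tested, and counting could split reads between similar copies. The third family gene, hmit-1.3, was added to the named genes after its values were seen: its mean was 56.8 ± 2.28 FPKM in blmp-1(tm548) and 51.9 ± 3.20 FPKM in WT (SD, n = 3 each; limma adjusted p = 0.283).

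osm-8 (R07G3.6) encodes a mucin-like protein secreted by the epidermis, whose loss turns on gpdh-1 and glycerol accumulation. It was at 34.3, 30.1 and 57.0 FPKM in blmp-1(tm548) replicates 1, 2 and 3, against 42.1, 59.3 and 65.0 FPKM in WT replicates 1, 2 and 3. Mutant replicates 1 and 2 were the lowest libraries, while mutant replicate 3 lay among the WT values and WT replicate 1 was the lowest of its group. On the log2 scale the difference was -0.48 (SE 0.271, 95% interval -1.14 to 0.18, limma adjusted p = 0.354). In the annotation osm-8 lies within the span of npp-21 on the opposite strand but shares 0 exon bases with it, and npp-21 was at 67.2 FPKM in blmp-1(tm548) and 63.1 FPKM in WT. For each gpdh-1 fragment per kilobase there were 0.452, 0.411 and 0.831 osm-8 fragments in blmp-1(tm548) replicates 1, 2 and 3, and 0.666, 1.46 and 1.58 in WT replicates 1, 2 and 3.

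**Figure D2:**
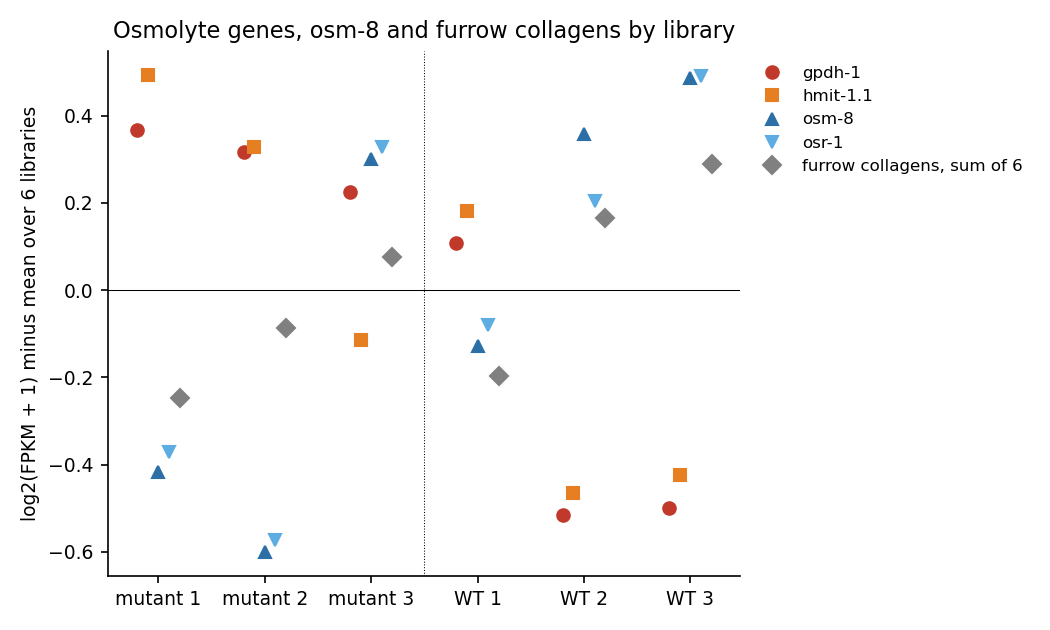
Level of gpdh-1, hmit-1.1, osm-8, osr-1 and the summed 6 furrow collagens in each library, as log2(FPKM + 1) minus the mean over the 6 libraries; mutant libraries are left of the dotted line and WT libraries right of it. In WT replicate 1 gpdh-1 and hmit-1.1 are the highest of their group and osm-8 the lowest, and in mutant replicate 3 osm-8 is the highest of its group.

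The library that stood apart for gpdh-1, hmit-1.1 and osm-8 also stood apart for the furrow collagens, the cuticle proteins whose loss activates the same response. Their transcripts rise and fall once in each larval stage. Their summed level was 652, 729 and 816 FPKM in blmp-1(tm548) replicates 1, 2 and 3, against 676, 869 and 947 FPKM in WT replicates 1, 2 and 3. WT replicate 1 was the lowest WT library for 6 of 6 furrow collagens, and mutant replicate 3 was the highest mutant library for 6 of 6. osr-1, an osmotic stress resistance gene named after its values were seen, had its highest mutant value in replicate 3 and its lowest WT value in replicate 1, as osm-8 did: 28.9, 25.1 and 47.7 FPKM in blmp-1(tm548), against 35.7, 43.7 and 53.5 FPKM in WT (limma adjusted p = 0.408). The part of such differences between libraries in the values of gpdh-1, hmit-1.1 and osm-8 was not tested.

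Regulators and sensors of the osmotic response held no called gene. The list has 19 genes, among them the furrow collagens, the secreted regulators osm-7 and osm-11 and the p38 pathway. All 19 were tested, and by limma 0 rose and 0 fell, with 4 at an unadjusted p under 0.05. Over all features 3917 of the 17058 tested had such an unadjusted p. Of all features tested 6.40% were called. The median log2 difference was -0.10 beside 0.00 over all features tested. The lowest adjusted p was that of egl-27, a GATA-type chromatin factor needed for gpdh-1 induction, at 80.6 ± 4.68 FPKM in blmp-1(tm548) and 68.8 ± 2.39 FPKM in WT (SD, n = 3 each; log2 difference 0.22, limma adjusted p = 0.0809). It passed with quantile normalization (limma adjusted p = 0.0416) and with library weights (0.0210). With library weights 2 genes of the list rose and 4 fell, with quantile normalization 2 rose, and without blmp-1(tm548) replicate 3 1 fell.

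Genes of osmolyte metabolism and water transport moved in both directions. Of 26 listed, 25 were tested, 3 rose, 1 fell and 21 did not pass, with a median log2 difference of -0.04. Over all features tested 3.34% were called higher and 3.06% lower. Beside hmit-1.2, the trehalose-6-phosphate synthase gene tps-1 rose, at 49.3, 45.3 and 46.5 FPKM in blmp-1(tm548), against 36.4, 31.9 and 32.0 FPKM in WT (log2 difference 0.48, limma adjusted p = 0.0194). The trehalase gene tre-5, whose product splits trehalose, fell to 6.78, 5.01 and 6.47 FPKM in blmp-1(tm548), against 16.6, 15.8 and 11.02 FPKM in WT (log2 difference -1.12, limma adjusted p = 0.0284). Trehalose is a second protective sugar solute of the worm. The aquaporin gene aqp-8, a water channel of the excretory cell, rose to 134.1, 144.9 and 99.3 FPKM in blmp-1(tm548), against 78.6, 69.6 and 59.3 FPKM in WT (log2 difference 0.85, limma adjusted p = 0.0380). For each of these 3 genes the groups did not overlap, as for 28.7% of all features tested.

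Most of these calls were lost when 1 library was left out. The number of osmolyte genes that rose was 0 without blmp-1(tm548) replicate 1 or 2 or WT replicate 2, and 1 without WT replicate 3. The number that fell was 2 without WT replicate 3 and 0 without any other single library. The call of tps-1 was lost without blmp-1(tm548) replicate 1 or 2 or WT replicate 2 or 3 (limma adjusted p = 0.0842, 0.0640, 0.0887 and 0.0559). That of aqp-8 was lost without any single library but blmp-1(tm548) replicate 3 (0.0534 to 0.135), and with no trend in the prior variance (0.0689). That of tre-5 was lost without any but WT replicate 3 (0.0528 to 0.122).

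Of 6 other genes that respond to hypertonic stress or cuticle damage, 2 rose and 1 fell. That list is too small to read against the shares over all features tested, 3.34% higher and 3.06% lower. The epidermal antimicrobial peptide gene nlp-29, often read together with gpdh-1, rose to 308, 310.1 and 334 FPKM in blmp-1(tm548), against 201, 135 and 168 FPKM in WT (limma adjusted p = 0.0168). nlp-31, of the same gene cluster, rose to 176, 178 and 198 FPKM in blmp-1(tm548), against 132, 117 and 115 FPKM in WT (limma adjusted p = 0.00948). The glutathione S-transferase gene gst-10 fell to 88.7, 83.9 and 85.2 FPKM in blmp-1(tm548), against 131, 138 and 123 FPKM in WT (limma adjusted p = 0.00380). For each of the 3 the groups did not overlap, as for 28.7% of all features tested. Counting could split reads among similar genes of the nlp-29 cluster. Leaving out WT replicate 3 gave 3 that rose, and 1 rose without blmp-1(tm548) replicate 1 or 2, where nlp-29 lost its call (limma adjusted p = 0.0644 and 0.0658).

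The metallothioneins had differences of opposite sign. mtl-2 (T08G5.10) fell to 119.5, 102.7 and 107.4 FPKM in blmp-1(tm548) replicates 1, 2 and 3, against 187.5, 188.0 and 140.3 FPKM in WT replicates 1, 2 and 3. The groups did not overlap, and WT replicate 3 came nearest to the mutant libraries. The means were 109.9 ± 8.72 FPKM in blmp-1(tm548) and 171.9 ± 27.4 FPKM in WT (SD, n = 3 each). The log2 difference was -0.63 (SE 0.127, 95% interval -0.94 to -0.32, limma adjusted p = 0.0409), and mtl-2 was 1.55-fold lower. The call lies close to the threshold: it was lost in 10 of 16 alternatives, over which the adjusted p ran between 0.00642 and 0.191 and the log2 difference between -0.77 and -0.56. It was lost without any single library other than WT replicate 3 (limma adjusted p = 0.0925 to 0.149).

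Transcripts of later stages also differed between the libraries. The yolk protein genes vit-2, vit-5 and vit-6 and the adult collagen gene col-19 (4 genes, 0 called by limma) summed to 177.7, 91.7 and 135 FPKM in blmp-1(tm548) replicates 1, 2 and 3, against 350.0, 471 and 122.5 FPKM in WT replicates 1, 2 and 3. The highest 2 libraries in this sum, WT replicates 1 and 2, were also the highest for mtl-2. WT replicate 3 lay within the mutant range of the sum and still held more mtl-2 than each mutant library. The part of these transcripts in the mtl-2 result was not tested.

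**Figure D3:**
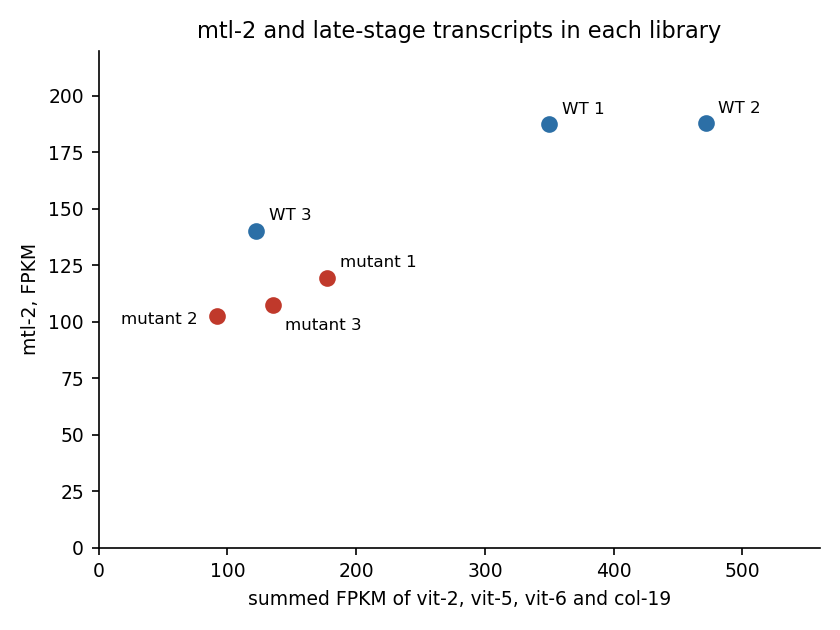
FPKM of mtl-2 (vertical axis) beside the summed FPKM of vit-2, vit-5, vit-6 and col-19 (horizontal axis), 1 point per library, with blmp-1(tm548) in red and WT in blue. WT replicates 1 and 2 are highest on both axes, and WT replicate 3 lies above the mutant libraries at a like sum.

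The WT level of mtl-2 lay near the level of abundant long transcripts. The means of 10 such genes, of actin, myosin, paramyosin, elongation factors and ribosomal proteins, spanned only 192 to 233 FPKM, or 1.49 to 1.81 reads per base of transcript at the estimated depth. Of 18971 coding genes of at least 300 nt, 48 had a mean above 300 FPKM. gpdh-2 was also a high transcript, with 92.0% of tested features at a lower mean in WT. The myosin and paramyosin genes are also among the body wall muscle markers. Whether duplicate reads were removed is not given in the sources used here. The part of any such limit in the mtl-2 difference, the narrow band of gpdh-2 or the marker values was not tested.

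mtl-1 (K11G9.6) was at 18.9, 10.4 and 8.43 FPKM in blmp-1(tm548) replicates 1, 2 and 3, against 4.82, 1.94 and 7.37 FPKM in WT replicates 1, 2 and 3. Each mutant library lay above each WT library, but mutant replicate 3 and WT replicate 3 were close. The fitted log2 difference was 1.298 (SE 0.457, 95% interval 0.19 to 2.41), a 2.46-fold difference that missed the threshold (limma adjusted p = 0.161). It rests on few reads. The transcript is short, with 373 nt of exon, though that of mtl-2 is shorter (347 nt). The level of mtl-1 was low, with 18.2% of tested features at a lower mean in WT. At the estimated depth its values stood for at most about 56, 31 and 24 reads in the mutant libraries and 14, 5.42 and 22 reads in the WT libraries. On the same upper estimate the lowest value of the other 5 genes was about 278 reads, that of mtl-2 in mutant replicate 3. The ratio of mtl-2 to mtl-1 was 6.33, 9.91 and 12.7 in blmp-1(tm548) replicates 1, 2 and 3 and 38.9, 97.0 and 19 in WT replicates 1, 2 and 3, which restates the separate values and rests on the same few mtl-1 reads.

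Among genes of metal handling 4 rose and none fell by limma. Of all features tested 3.34% were called higher and 3.06% lower. Of 29 listed, 28 were matched and 26 tested, 22 did not pass, and the median log2 difference was -0.02. By limma 6 had an unadjusted p under 0.05, as 3917 of the 17058 features tested did. Of the family named cadmium-responsive, cdr-2 and cdr-4 rose, and the other cdr genes tested were not called. cdr-2 rose to 116, 124 and 115 FPKM in blmp-1(tm548), against 77.2, 68.4 and 69.0 FPKM in WT (log2 difference 0.72, limma adjusted p = 0.00321). cdr-4 rose to 120.4, 143 and 128 FPKM in blmp-1(tm548), against 92.0, 91.9 and 84.0 FPKM in WT (log2 difference 0.54, limma adjusted p = 0.0142). The ZIP-family metal transporter gene zipt-7.1 was at 42.5 ± 2.03 FPKM in blmp-1(tm548) and 29.9 ± 1.99 FPKM in WT (SD, n = 3 each; limma adjusted p = 0.0173). The phytochelatin synthase gene pcs-1, which makes metal-binding peptides, was at 55.7 ± 3.94 FPKM in blmp-1(tm548) and 43.3 ± 1.98 FPKM in WT (SD, n = 3 each; limma adjusted p = 0.0395).

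The call of cdr-2 held in all 16 alternatives, while 2 genes of this list rose without blmp-1(tm548) replicate 1 or 2 and 1 without WT replicate 2. The call of zipt-7.1 was lost without blmp-1(tm548) replicate 1 or 2 or WT replicate 2 (limma adjusted p = 0.0621, 0.0743 and 0.0723), and that of cdr-4 without WT replicate 2 (0.0573). The call of pcs-1 was lost without any single library but blmp-1(tm548) replicate 3 (limma adjusted p = 0.0735 to 0.145), and with no trend in the prior variance (0.0684). The zinc receptor gene hizr-1 and some of its known targets, cdr-1 and cdf-2, were named after their values were seen. hizr-1 was at 9.17 ± 1.55 FPKM in blmp-1(tm548) and 12.5 ± 2.3 FPKM in WT (SD, n = 3 each; limma adjusted p = 0.247). cdr-1 was at 5.41 ± 0.695 FPKM in blmp-1(tm548) and 5.34 ± 0.566 FPKM in WT (adjusted p = 0.976 by limma, n = 3 each). cdf-2, an intestinal zinc transporter gene, was at 49.2, 42.6 and 45.7 FPKM in blmp-1(tm548), against 54.3, 57.4 and 55.2 FPKM in WT, lower in each mutant library but not past the threshold (limma adjusted p = 0.0668).

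Genes around DAF-16, of which mtl-1 is a target, moved in both directions. By limma 2 of the 9 rose and 1 fell, while 6 were not called, with a median log2 difference of 0.03. The shares over all features tested were 3.34% higher and 3.06% lower. pqm-1, a zinc-finger factor that acts opposite to DAF-16 on stress and growth genes, rose to 94.1, 93.5 and 99.3 FPKM in blmp-1(tm548), against 75.7, 67.9 and 65.5 FPKM in WT (limma adjusted p = 0.0154). dod-3, named for its regulation downstream of DAF-16, rose to 16.7, 15.4 and 36.5 FPKM in blmp-1(tm548), against 4.36, 7.33 and 4.12 FPKM in WT (log2 difference 1.86, limma adjusted p = 0.0394). The superoxide dismutase gene sod-3, another DAF-16 target, fell to 10.7, 6.65 and 6.74 FPKM in blmp-1(tm548), against 18.8, 17.4 and 16.5 FPKM in WT (log2 difference -1.07, limma adjusted p = 0.0298). The groups did not overlap for either sod-3 or dod-3, as for 28.7% of all features tested.

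Most of these calls depended on single libraries too. The call of sod-3 was lost without any single library but blmp-1(tm548) replicate 1 (limma adjusted p = 0.0618 to 0.117). That of dod-3 was lost without any but blmp-1(tm548) replicate 3 (0.0797 to 0.101), with no filter on low values (0.0531) and with no trend in the prior variance (0.0642). That of pqm-1 was lost without blmp-1(tm548) replicate 1 or 2 or WT replicate 2 (limma adjusted p = 0.0619, 0.0574 and 0.0752). In this list 0 genes rose without blmp-1(tm548) replicate 1 or 2 or WT replicate 2, and 1 without WT replicate 1 or 3. The number that fell was 0 without blmp-1(tm548) replicate 2 or any single WT library.

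**Figure D4:**
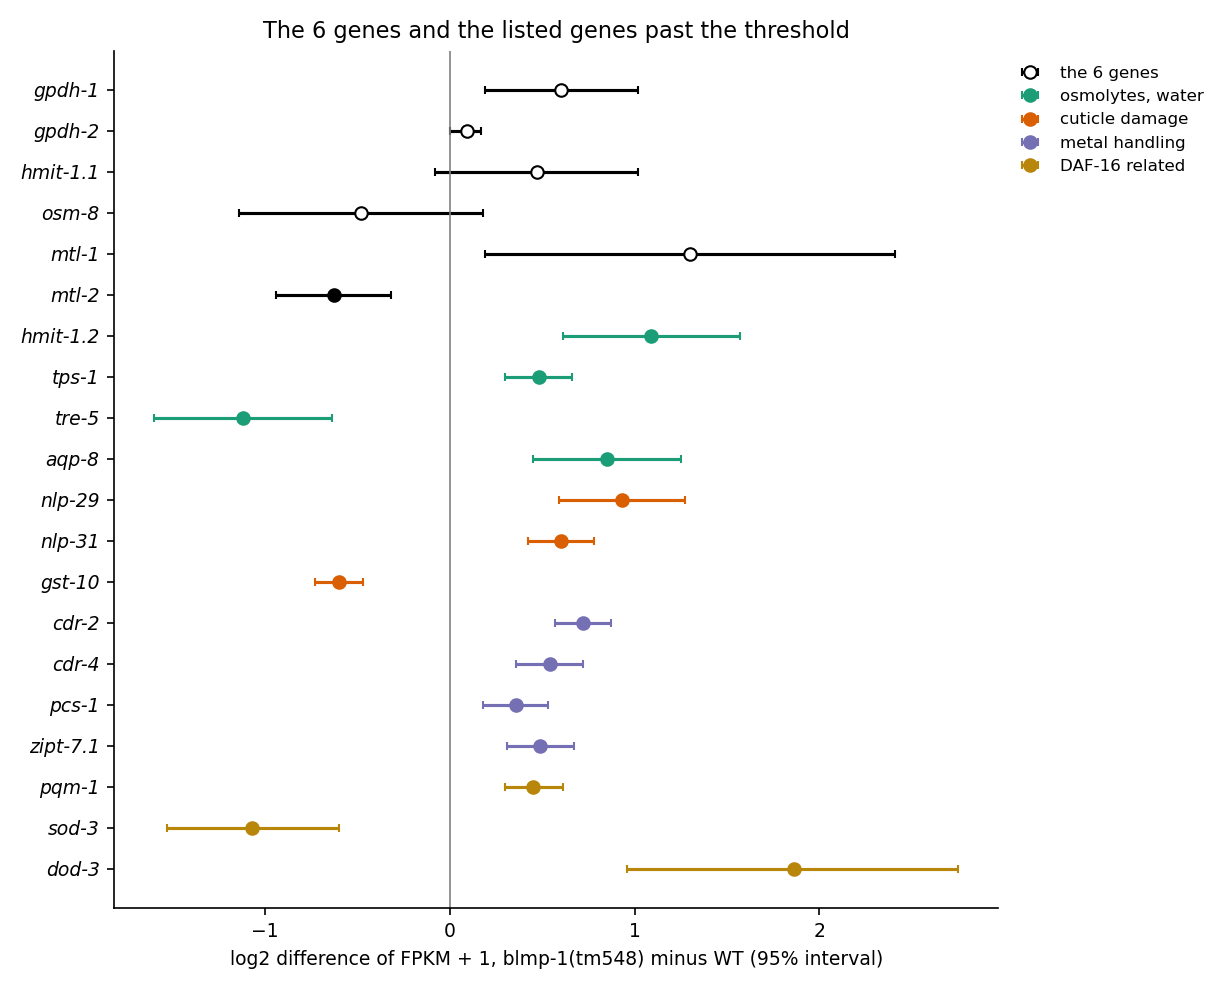
Log2 difference of FPKM + 1, blmp-1(tm548) minus WT, with its 95% interval from limma, for the 6 genes (black) and for the genes of the other lists that passed the threshold (colours); filled points passed an adjusted p of 0.05. Of the 6 genes mtl-2 alone is filled, at -0.63, and hmit-1.2 stands at 1.09.

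By level the 6 genes fell into different orders in the genotypes. In blmp-1(tm548) the order of mean FPKM was gpdh-2 (142.8), mtl-2 (109.9), gpdh-1 (72.5), hmit-1.1 (61.7), osm-8 (40.4) and mtl-1 (12.56). The ranges of gpdh-1 and hmit-1.1 overlapped there, as did those of hmit-1.1 and osm-8, while the other neighbours lay apart. In WT the order was mtl-2 (171.9), gpdh-2 (134.5), osm-8 (55.5), gpdh-1 (48.3), hmit-1.1 (44.5) and mtl-1 (4.71), and the ranges of osm-8, gpdh-1 and hmit-1.1 overlapped. mtl-2 thus stood below gpdh-2 in each mutant library and above it in each WT library. In WT replicate 3 the 2 were close, at 140.3 FPKM for mtl-2 and 138.0 FPKM for gpdh-2. In blmp-1(tm548) 88.0% of tested features had a lower mean than mtl-2, and in WT 95.7%.

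The genes with the nearest profiles over the 6 libraries came from 7168 genes with a symbol and a mean of at least 10 FPKM (7169 for mtl-1). Nearness is the root mean square difference of centred log2 values, given here as a description. For gpdh-1 they were ttr-8 (0.0590) and igdb-3 (0.0637), for gpdh-2 mrps-5 (0.0133) and rfp-1 (0.0152), and for hmit-1.1 bli-6 (0.0735) and txt-5 (0.0816). For osm-8 they were wrt-9 (0.0512) and dpf-6 (0.0670), and for mtl-2 sdz-24 (0.0893) and cyp-35C1 (0.0929). mtl-1 had no near profile, with kreg-1 at 0.425 and bli-1 at 0.438. Of these, bli-6 and bli-1 are cuticle collagens and wrt-9 a hedgehog-related protein.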

How the data were processed

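RNA of bleach-synchronized mid-L3 Caenorhabditis elegans was sequenced from TruSeq libraries, as the labels’ protocols state. Samples were grouped by their titles, and table columns were matched to samples by the letter in the description. The deposited values are FPKM, which scale fragments to transcript length and to library size, and the authors gave them for all libraries together. The submitters' processing notes list TopHat2 2.0.7, Cufflinks 2.0.2 and Cuffdiff. Not given in the sources used here are the build, the annotation, the strand setting and how duplicates were handled, so no coordinates are printed. Symbols, exon lengths and neighbouring genes came from WBcel235 tables, in which 44880 of 45343 features matched.

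FPKM values are not counts, and no count model was used. Features with a mean of at least 1 FPKM (17058) were set to log2(FPKM + 1) and fitted with limma 3.58.1 in R 4.3.3. Group was the single term, the prior variance was trended, and p was adjusted by Benjamini-Hochberg over the 17058. The fit was also run on simulated data with independent libraries, which does not test it under the differences between libraries seen here. An adjusted p under 0.05 was called, and differences are blmp-1(tm548) minus WT. Such folds understate the change of low genes. Depth was estimated from the spacing of low values, on which 1 read has a fixed worth. For WT replicate 1 it was a peak of 39 genes, looked for only within a set range of depths. The other libraries were scaled from that value. The estimates came to 7470000 to 8040000 reads a library, and no count test was built on them.

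The 6 genes and the lists were chosen with earlier results of these data known. Of each list the text names up to 5 called genes with the lowest adjusted p, or the gene with the lowest one where none was called. For each of the 6 genes it names the 2 genes with the nearest profile over the libraries (smallest root mean square difference of centred log2 values, among genes with a symbol and a mean of at least 10 FPKM). The late-stage genes come from a list of markers, and gadr-6 and npp-21 are named because they overlap one of the 6 genes in the annotation. hmit-1.3, osr-1, hizr-1, cdr-1 and cdf-2 were named after their values were seen. Alternatives were no filter, a pseudocount of 0.1 or 0.5, means of at least 5 FPKM, scaling to equal medians, quantile normalization, no trend, library weights, a replicate block and each library left out. Leaving out replicate 1 of both groups was added after seeing the data.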

Additional observations from a re-analysis of the deposited data

How the results depend on the processing

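None of the 6 genes, blmp-1 or the called genes of the lists changed sign in any of the 16 alternatives. In many of these the sign could not change. No filter, means of at least 5 FPKM, no trend and the replicate block leave the log2 difference as it was. Where the groups did not overlap, leaving out a library cannot turn the sign either. mtl-2 kept its direction and lost its call with no filter on low values (log2 difference -0.63, limma adjusted p = 0.0535), quantile normalization (-0.61, 0.0640), no trend in the prior variance (-0.63, 0.0759), the replicate block (-0.63, 0.0518) and without replicate 1 of both groups (-0.62, 0.191), so 0 of the 6 genes were lower in each of these settings. With single libraries left out its log2 difference ran between -0.77 and -0.56, and 0 or 1 of the 6 genes were lower. gpdh-1 passed with library weights (log2 difference 0.79, adjusted p = 0.00663) and without replicate 1 of both groups (0.78, 0.0304), and ran between 0.50 and 0.81 with single libraries left out, where 0 or 1 of the 6 genes were higher. With library weights gpdh-2, hmit-1.1, osm-8 and mtl-1 passed too (log2 differences 0.10, 0.77, -0.72 and 2.099; limma adjusted p = 0.0462, 0.0182, 0.0303 and 0.0166). Then 4 of the 6 genes were higher and 2 lower, and over all features tested 2005 were higher and 2112 lower, against 570 and 522 without weights. With single libraries left out 192 to 620 features were higher and 177 to 712 lower, and without replicate 1 of both groups 181 and 117. Without replicate 1 of both groups 1 of the 6 was higher.

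Of the lists, the osmotic regulators had 2 higher with quantile normalization, 2 higher and 4 lower with library weights, and 0 to 1 lower with single libraries left out. The osmolyte genes had 1 higher with no trend, 5 higher and 6 lower with library weights, 0 lower with the replicate block, 1 higher and 0 lower without replicate 1 of both groups, and 0 to 3 higher and 0 to 2 lower with single libraries left out. The damage response genes had 1 to 3 higher with single libraries left out and 0 lower without replicate 1 of both groups. The metal genes had 2 lower with library weights, 1 higher without replicate 1 of both groups and 1 to 4 higher with single libraries left out. The DAF-16 list had 1 higher with no filter, no trend, the replicate block or without replicate 1 of both groups, 2 lower with library weights, 0 lower without replicate 1 of both groups, and 0 to 2 higher and 0 to 1 lower with single libraries left out. The cause of these moves was not tested.

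Same-numbered mutant and WT libraries deviated from their group means with correlations of 0.133, -0.0352 and 0.0697 over features for numbers 1, 2 and 3. Mutant replicate 1 correlated best with WT replicate 1, and mutant replicates 2 and 3 both with WT replicate 3. By the labels replicate 1 of WT and of the mutant were samples A and B, and the others samples G to J. These values do not settle whether the numbers are pairs, and the main fit did not take them as pairs. With the replicate block 504 features were higher and 425 lower, and tre-5, pcs-1 and dod-3 lost their calls beside mtl-2 (limma adjusted p = 0.0592, 0.0726 and 0.0809). Depth limits mtl-1 most.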
